A study of Mus musculus with 24 samples.

Results

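The nuclear receptors examined here were the members of that transcription factor family that lie outside the core adipogenic set, chosen by gene symbol and matched to the Ensembl identifiers of the expression tables. All 35 receptors were found among the 37310 genes measured. Of these, 20 were expressed, which here means a level of at least 1 FPKM, a read density scaled by gene length and library size, in both replicates 1 and 2 of at least 1 group. Another 9 were detected below that level, and 6 did not exceed 3 reads in any library.

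The 24 libraries came from stromal vascular fraction cells, the mixed non-adipocyte cells released from adipose tissue by collagenase, of 6-week-old C57BL/6 mice. WAT denotes cells from inguinal white adipose tissue and BAT cells from interscapular brown adipose tissue. A paper that used the white control values describes its inguinal cells as taken from female mice. All cultures received an adipogenic cocktail of insulin, dexamethasone and 3-isobutyl-methylxanthine for 4 days. Those taken on day 8 then had a medium with insulin and T3, the active thyroid hormone, for another 4 days. The 8 groups of 3 replicates combined depot, day 4 or day 8, and either EGCG (epigallocatechin gallate, a catechin of green tea) or the solvent DMSO as control. The labels name no transgene or deletion, and whether replicates were separate isolations is not given in the sources used here, so that p-values measure the spread between these samples, which may be technical. The EGCG dose is likewise not given.

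Nuclear receptors are transcription factors, most of which bind DNA directly. Many are switched by small lipophilic ligands such as thyroid hormone, retinoic acid, vitamin D, oxysterols or steroids. Several act as heterodimers with a retinoid X receptor, whereas the NR4A receptors are orphans whose activity is set mainly by how much of them is made, and their genes are known as immediate early genes induced by cyclic AMP and other stimuli. In adipose cells, PPARγ with RXRα and the glucocorticoid receptor form the well-known adipogenic core, and the receptors described here surround it.

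Sequencing depth on genes ranged from 39452696 to 52893848 reads in replicates 1 and 2. In replicate 3, which was deposited in a separate table, it ranged from 16392420 to 41675643. The 10 adipocyte markers (Adipoq, Pparg, Fabp4 and others) were all detected in control cultures and all were lower with EGCG in each depot and on each day: their summed level in replicates 1 and 2 was 2290 to 5999 FPKM in WAT controls against 167 to 464 with EGCG, and 5527 to 10950 in BAT controls against 357 to 1358. The part of this difference in adipocyte makeup in the receptor results was not tested, and in such bulk samples fewer cells of a type and less RNA per cell cannot be told apart. The third WAT day 8 EGCG library stood apart, with 61.0% of its reads on 5 genes, and the expressed receptors in it were at a median of 0.380 times the mean of replicates 1 and 2, against 0.371 for all tested genes. Tests used only replicates 1 and 2, which share 1 table. All FPKM values below are given in the order of replicates 1, 2 and 3.

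The expressed receptors spanned a wide range of levels. Averaged over the 16 libraries of replicates 1 and 2, Nr4a1 was highest at 54.8 FPKM, followed by Nr1h2 at 41.3 and Thra at 34.9. Rxrb, Ppard and Vdr followed at 22.0, 20.2 and 18.3, then Nr2f6 at 13.9, Rarg at 12, Rara at 9.44 and Rora at 6.45. Nr2c1, Nr2c2, Nr4a2, Nr4a3 and Pgr averaged between 5.05 and 2.15, and Thrb, Nr6a1, Rarb, Esr1 and Rxrg between 1.97 and 0.601. For all 19 pairs of neighbours in this order, the ranges over these libraries overlapped. Of the 20, 13 were expressed in all 8 groups and 7 in some groups only. The number expressed was 23 with a minimum of 0.5 FPKM, 16 with 2 FPKM and 20 in replicate 3 alone.

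**Figure D1:**
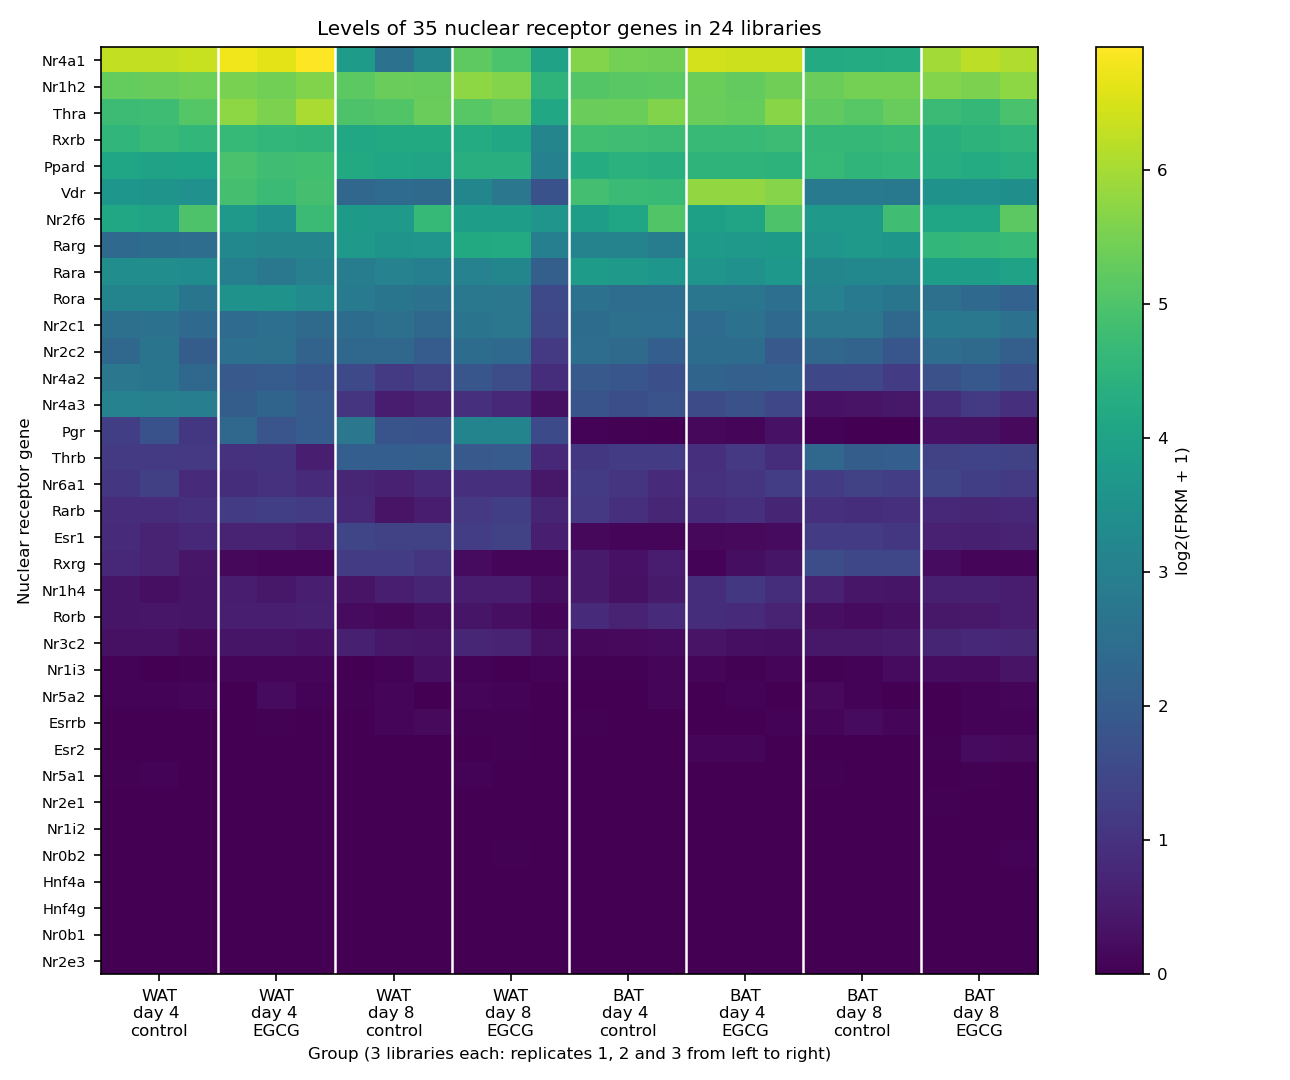
Levels of all 35 receptors (vertical axis, ordered by mean level) in the 24 libraries (horizontal axis, 8 groups of replicates 1, 2 and 3), with colour giving log2(FPKM + 1). Nr4a1, Nr1h2 and Thra were highest on average, Pgr was near 0 in BAT, and the third WAT day 8 EGCG library was darker for most receptors.

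Differences were tested with limma across 14095 genes on log2(FPKM + 1), so fold changes on that scale understate the change of low genes, and a receptor was called when its Benjamini-Hochberg adjusted p was under 0.05. All 20 expressed receptors were in this test. With EGCG, 7 receptors were higher and 5 lower in WAT on day 4, beside 34.4% and 19.3% of all tested genes. In WAT on day 8, 10 were higher and 1 lower (all genes 44.7% and 18.9%). In BAT on day 4, 4 were higher and 1 lower (27.9% and 20.6%), and in BAT on day 8, 8 were higher and 7 lower (46.5% and 26.1%). The receptors' own shares, in the same order, were 35%, 50%, 20% and 40% higher and 25%, 5%, 5% and 35% lower, near the background in most cases and under it for lower receptors in WAT on day 8 and BAT on day 4. Replicate 3, in its own table, had the same sign for 12 of 12, 3 of 11, 4 of 5 and 15 of 15 of these calls, and in WAT on day 8 for 9 of 11 after median-ratio scaling. Read over the 4 EGCG comparisons, 7 receptors were called in the higher direction only, 4 in the lower direction only, 7 in both, and Nr2c2 and Nr6a1 in neither. After median-ratio scaling of the libraries, which moved the all-gene median from 0.09, 0.17, 0.03 and 0.17 to between -0.01 and 0.01 on the log2 scale, the counts of higher and lower receptors became 5 and 8, 6 and 3, 4 and 2, and 5 and 7 in the same order. Among all called genes, the share that was higher moved from 64.1%, 70.3%, 57.6% and 64.0% to 47.0%, 50.6%, 52.8% and 51.0%.

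Between day 4 and day 8, 6 receptors rose and 9 fell in WAT controls (27.7% and 33.2% of all genes), and 8 rose and 8 fell in BAT controls (28.7% and 40.4%), the latter becoming 9 and 5 after median-ratio scaling. Among all genes called in BAT controls, 41.5% rose, and 55.3% after that scaling. In EGCG cultures, 8 rose and 7 fell in WAT (31.8% and 27.7%), and 7 rose and 7 fell in BAT (29.7% and 28.2%). The medium also changed at day 4, so time and medium cannot be told apart in these comparisons. Against WAT, BAT controls had 6 receptors higher and 8 lower on day 4 (41.4% and 14.4%, or 4 and 10 receptors after median-ratio scaling), and 10 higher and 2 lower on day 8 (31.6% and 22%). Among all genes called on day 4, 74.3% were higher in BAT, and 50.6% after that scaling. The EGCG effect itself differed between depots, as effect in BAT minus effect in WAT, for 3 receptors upward and 2 downward on day 4 (12% and 16.1%) and for 3 upward and 6 downward on day 8 (19.4% and 19.7%). Of the 143 called differences, 98 were kept under all 25 alternative settings, and of the 82 with a size of at least 0.5 on the log2 scale, 75 were kept and 0 changed direction.

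**Figure D2:**
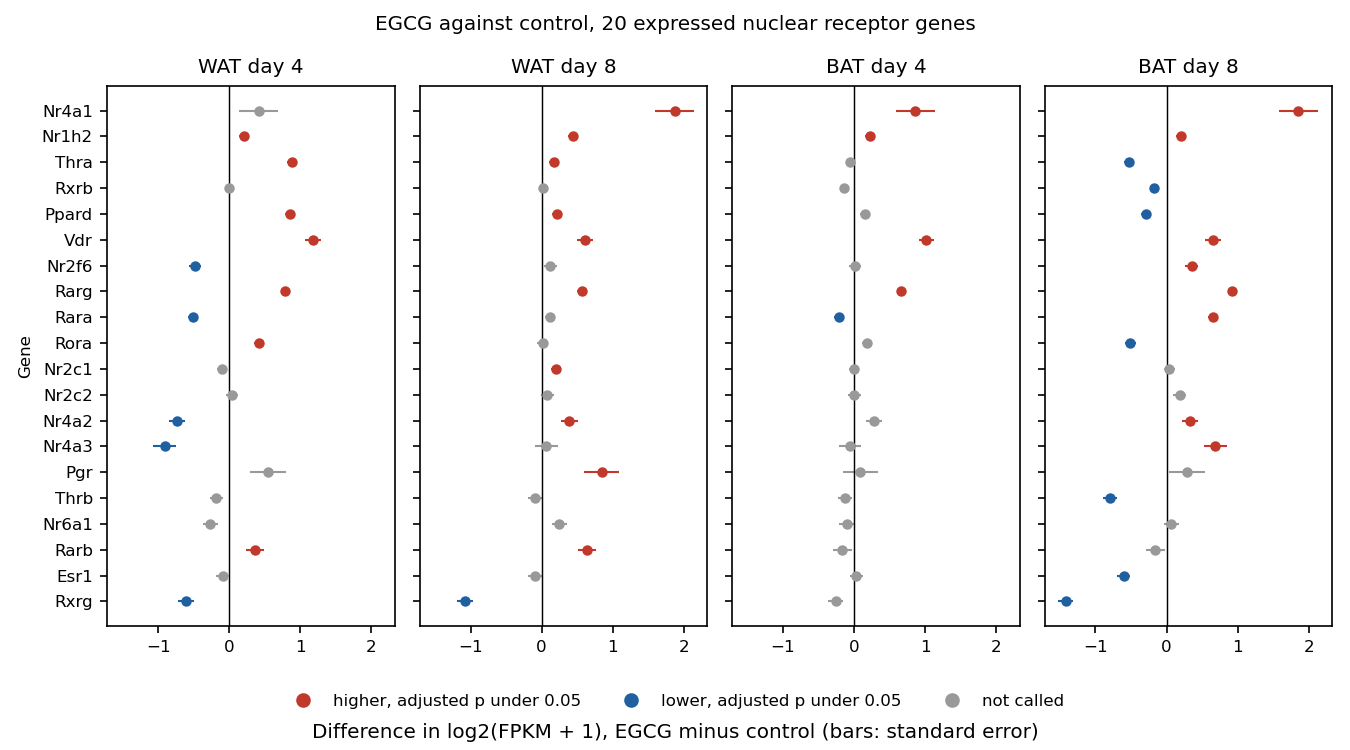
Log2 change with EGCG of each expressed receptor in the 4 depot and day combinations, on the log2(FPKM + 1) scale from replicates 1 and 2, with bars for the SE, red for called higher, blue for called lower and grey for not called. Vdr and Rarg were higher in all 4, Rxrg was lower in all but BAT day 4, where its value of -0.26 did not pass, and Thra and Ppard moved in opposite directions in WAT day 4 and BAT day 8.

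The NR4A receptors are shown with the bases just upstream of their RefSeq starts, because all 3 genes carried 4 copies of TGACG, the half-site of the cyclic AMP response element, in the 250 bases upstream of a start. The sequences come from the RefSeq promoter table of GRCm38.p6, and their positions were found by exact match in the NCBIM37 build of the files. Capitals mark TGACG read on either strand, so that CGTCA is the same motif on the other strand. For Nr4a3, the 98 bases before its annotated exon are printed, with 3 of the 4 matches.
Nr4a1, chr15:101097027-101097276, plus strand: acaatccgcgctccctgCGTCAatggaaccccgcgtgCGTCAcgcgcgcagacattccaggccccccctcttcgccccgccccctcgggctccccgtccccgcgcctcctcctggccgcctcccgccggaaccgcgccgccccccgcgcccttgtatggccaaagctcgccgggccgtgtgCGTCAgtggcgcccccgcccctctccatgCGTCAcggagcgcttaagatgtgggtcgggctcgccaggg
Nr4a2, chr2:56976415-56976664, minus strand: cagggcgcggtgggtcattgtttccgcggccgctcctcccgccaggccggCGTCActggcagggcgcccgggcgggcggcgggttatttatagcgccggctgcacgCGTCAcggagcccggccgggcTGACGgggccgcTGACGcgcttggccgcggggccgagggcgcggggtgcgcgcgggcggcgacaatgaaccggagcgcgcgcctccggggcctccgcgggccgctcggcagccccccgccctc
Nr4a3, chr4:48057927-48058024, plus strand: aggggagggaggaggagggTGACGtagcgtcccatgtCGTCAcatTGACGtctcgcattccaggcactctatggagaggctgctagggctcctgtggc
At least 1 match was present in 17.8% of all 32851 promoters and at least 4 in 45 of them. The 32 receptors with an entry had 45 promoters. Counted by gene and not by promoter, 12 receptors had a match and the 3 NR4A genes were those with 4 or more. A match describes the letters only.

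Nr4a1 (Nur77) was the most abundant receptor and one of the most variable. In WAT on day 4 it measured 77.5, 76.3 and 79.9 FPKM in controls and 107, 98.9 and 120 with EGCG. On day 8 it had fallen to 13.2, 5.03 and 7.95 in controls and stood at 35.5, 30.4 and 14.8 with EGCG. All EGCG libraries were above all control libraries on each day, and the day 8 controls spread widely. The EGCG difference on day 4 was 0.42 (SE 0.27, adjusted p = 0.222) on the log2 scale and did not pass, while on day 8 it was 1.87 (SE 0.27, adjusted p = 8.95e-05), or 3.61-fold on FPKM and 6.55-fold without control replicate 1. The fall between days in WAT controls was 8.44-fold (-3.07 on the log2 scale, SE 0.27, adjusted p = 1.74e-06) and 15.3-fold without day 8 control replicate 1.

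In BAT, Nr4a1 measured 48.5, 43.7 and 41.8 FPKM in day 4 controls and 86.4, 82.6 and 82.2 with EGCG. On day 8 the controls were at 17.9, 18.0 and 18.6 and the EGCG cultures at 61.2, 74.0 and 67.4. Here too no EGCG library reached down to a control library. EGCG raised Nr4a1 by 1.85 (SE 0.27, adjusted p = 6.68e-05) on day 8, a 3.77-fold difference on FPKM. On day 4 the rise was 0.86 (SE 0.27, adjusted p = 0.0217), a call lost without any 1 of the 4 libraries compared (adjusted p 0.0548 and 0.101 without control replicate 1 or 2, 0.0873 and 0.0668 without EGCG replicate 1 or 2). Nr4a1 fell 2.57-fold between days in BAT controls (adjusted p = 0.00112), whereas in BAT with EGCG its change of -0.32 (SE 0.27) did not pass. BAT controls were lower than WAT controls on day 4 by -0.73 (SE 0.27, adjusted p = 0.0406), a call lost in 14 of the 25 alternatives, and higher on day 8 by 1.04 (SE 0.27, adjusted p = 0.00737), which was 1.65 without WAT day 8 control replicate 1 and 0.42 without replicate 2.

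Nr4a2 (Nurr1) and Nr4a3 (NOR-1), the close relatives of Nr4a1, were far lower and went the other way in WAT on day 4. Nr4a2 measured 5.71, 5.40 and 4.00 FPKM in WAT day 4 controls and 2.82, 3.04 and 2.58 with EGCG. Nr4a3 measured 7.34, 7.13 and 6.77 in these controls and 3.11, 3.69 and 3.00 with EGCG. The groups did not overlap for either gene. The EGCG difference was -0.74 (SE 0.12, adjusted p = 0.000226) for Nr4a2 and -0.91 (SE 0.16, adjusted p = 0.000461) for Nr4a3, corresponding to 1.89-fold and 2.13-fold lower FPKM.

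BAT day 4 cultures held Nr4a2 at 2.84, 2.60 and 2.2 FPKM in controls and 3.72, 3.33 and 3.44 with EGCG, and its difference of 0.28 (SE 0.12, adjusted p = 0.0622) did not pass. Nr4a3 was at 2.45, 2.14 and 2.41 against 2.04, 2.29 and 1.79, with overlapping groups. The EGCG effect on day 4 therefore differed between depots for Nr4a2 by 1.02 (SE 0.16, adjusted p = 0.000884). For Nr4a3 the depot difference was 0.85 (SE 0.22, adjusted p = 0.0148), which was lost with a pseudocount of 0.1 (adjusted p = 0.107) and narrowly without WAT day 4 EGCG replicate 1, BAT day 4 control replicate 2 or BAT day 4 EGCG replicate 2 (adjusted p 0.0572, 0.0511 and 0.05004).

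On day 8, both genes were lower than on day 4 in controls. Nr4a2 measured 1.88, 1.25 and 1.51 FPKM in WAT controls and 2.58, 2.11 and 0.888 with EGCG. Its BAT values were 1.81, 1.78 and 1.30 in controls and 2.31, 2.72 and 2.24 with EGCG. The EGCG differences in replicates 1 and 2 were small, at 0.39 in WAT (adjusted p = 0.0106) and 0.33 in BAT (adjusted p = 0.0222), and each was lost in 5 alternatives, median-ratio scaling among them (adjusted p 0.0771 and 0.165). Without control replicate 2 the WAT difference was 0.21.

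Nr4a3 on day 8 measured 1.11, 0.440 and 0.622 FPKM in WAT controls and 0.911, 0.746 and 0.247 with EGCG, with overlapping groups. In BAT it was at 0.259, 0.297 and 0.366 in controls and 0.870, 1.27 and 0.962 with EGCG. The BAT groups were well apart, and the rise of 0.69 (SE 0.16, adjusted p = 0.00179) was 3.84-fold on FPKM. The depot difference of this effect, 0.62 (SE 0.22, adjusted p = 0.0442), was lost in 16 of the 25 alternatives and was 0.34 without WAT day 8 control replicate 1. Between days, Nr4a3 fell 9.33-fold in WAT controls and 8.25-fold in BAT controls (adjusted p = 2.42e-07 and 9.43e-06), the former being 16.4-fold without WAT day 8 control replicate 1. In BAT EGCG cultures the fall was -0.62 (adjusted p = 0.00502), lost without BAT day 8 EGCG replicate 1 (adjusted p = 0.0536).

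Other immediate early genes, counted as a list of 10, moved in part with the NR4A receptors. With EGCG, 4 were higher and 2 lower in WAT on day 4 (median log2 change 0.19, against 0.09 for all genes), 6 higher and 0 lower on day 8 (0.53 against 0.17), and in BAT all 10 were higher on day 4 (1.11 against 0.03) and on day 8 (1.08 against 0.17). Between days, 0 rose and 9 fell in WAT controls while 7 rose and 2 fell in BAT controls. Fos, a subunit of AP-1, measured 23.7 and 20.7 FPKM in replicates 1 and 2 of WAT day 4 controls and 3.40 and 3.43 on day 8. In BAT it went from 12.3 and 10.4 to 28.4 and 26.3. Fos thus fell in WAT controls and rose in BAT controls, where the 3 NR4A genes fell. Ier2 was lower with EGCG in WAT on day 4 by -0.76 (SE 0.09, adjusted p = 2.9e-05), as were Nr4a2 and Nr4a3, and Egr3 by -0.61 (SE 0.19, adjusted p = 0.017).

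**Figure D3:**
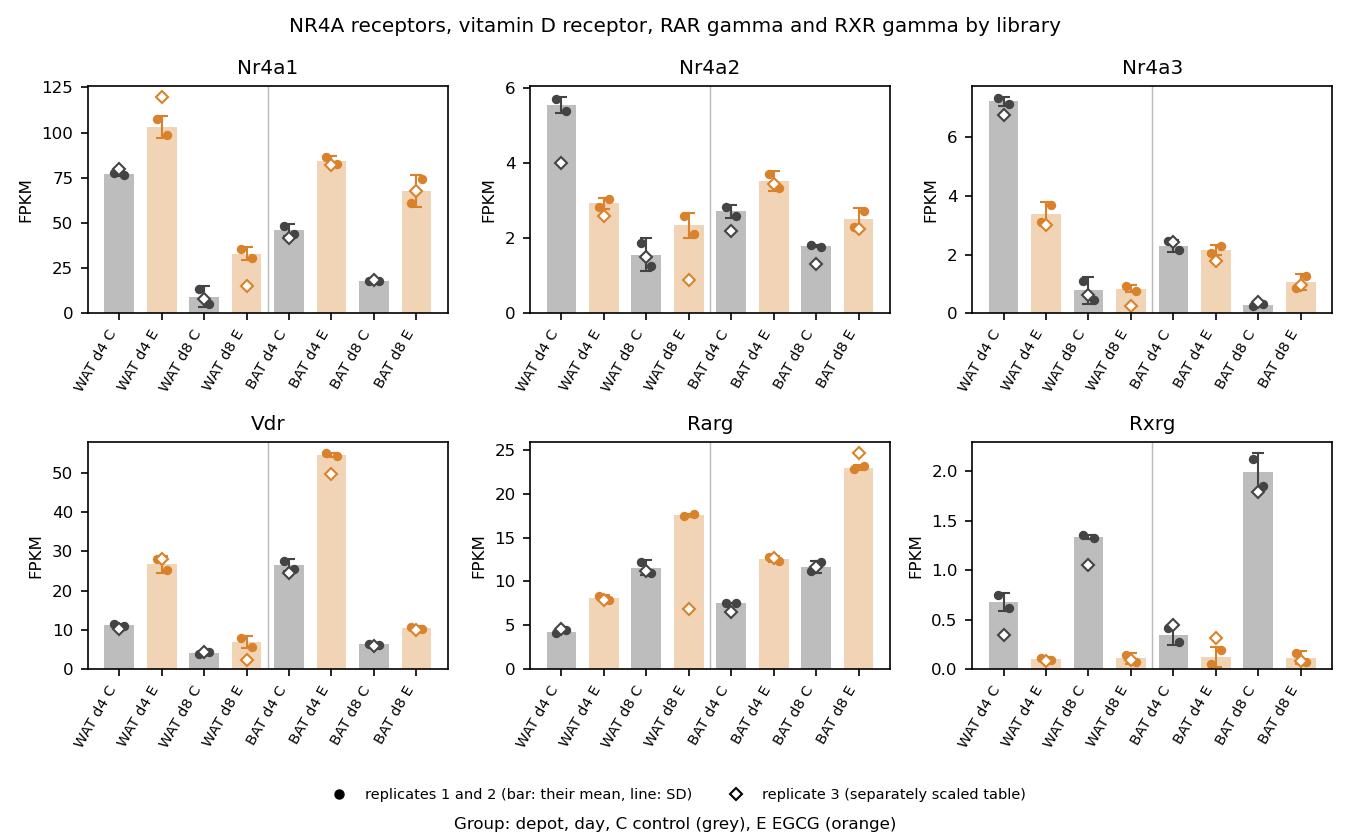
FPKM of Nr4a1, Nr4a2, Nr4a3, Vdr, Rarg and Rxrg in each library, with bars for the mean of replicates 1 and 2, lines for their SD, dots for these replicates and open diamonds for replicate 3. Nr4a2 and Nr4a3 were lower with EGCG in WAT on day 4, where Nr4a1 was not, and Rxrg was at most 0.313 FPKM in every EGCG library.

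The vitamin D receptor gene Vdr, which encodes the receptor for calcitriol and pairs with RXR, was higher with EGCG in both depots and on both days. WAT day 4 levels were 11.4, 10.9 and 10.2 FPKM in controls and 28.2, 25.2 and 28.2 with EGCG. The BAT day 4 levels were 27.7, 25.4 and 24.4 against 54.9, 54.3 and 49.7. These groups did not overlap, and the differences were 2.38-fold and 2.06-fold on FPKM (1.18 and 1.02 on the log2 scale, SE 0.11, adjusted p = 3.65e-06 and 1.19e-05). On day 8 the levels were 3.82, 4.36 and 4.28 in WAT controls and 7.95, 5.74 and 2.33 with EGCG, the last value from the library that stood apart. In BAT they were 6.35, 6.26 and 5.94 against 10.8, 10.2 and 9.98. In BAT these groups did not overlap, and the day 8 differences were both 1.67-fold (adjusted p = 0.00039 and 0.000165), that in WAT being 1.40-fold without EGCG replicate 1.

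Vdr also fell with time in all 4 settings, by 2.73-fold in WAT controls, 4.21-fold in BAT controls, 3.89-fold in WAT with EGCG and 5.19-fold in BAT with EGCG. BAT controls held 2.37-fold more Vdr than WAT controls on day 4 and 1.54-fold more on day 8. The EGCG effect did not differ detectably between depots (-0.17, SE 0.15, on day 4 and 0.04, SE 0.15, on day 8). Of 4 genes of vitamin D metabolism and response, 2 were tested: 0 were called with EGCG on day 4, and Cyp27a1, a sterol hydroxylase, fell by 0.77 in WAT and 2.70 in BAT on the log2 scale on day 8 (adjusted p = 0.0012 and 2.4e-08). Cyp24a1, the calcitriol-degrading enzyme and a classic target of the receptor, was named after its values were seen and reached at most 8 reads in any library. The summed level of 8 macrophage markers moved with Vdr on day 4 but not on day 8: in replicates 1 and 2 it was 82.5 to 88.2 FPKM in WAT controls against 210 to 213 with EGCG, 192 to 205 against 410 to 452 in BAT, and lower with EGCG on day 8 in both depots, with 0 of the 8 at the floor. The summed level of 7 endothelial markers, as the mean of replicates 1 and 2, was higher with EGCG in all 4 comparisons. In WAT it was 17.2 FPKM in controls and 37.2 with EGCG on day 4, and 24.2 and 29.2 on day 8. In BAT it was 11.1 and 33.9, then 16.2 and 29.8. Pecam1, Tie1 and Cldn5 went the other way in WAT on day 8, as did Cldn5 in BAT on day 8. The summed level of 3 mesothelial markers was low but also higher with EGCG in all 4 comparisons, with overlapping replicates in BAT on day 8. Of these markers, Wt1 was lower with EGCG on day 8 in both depots. The sum of 4 smooth muscle markers fell from 167 to 76.3 FPKM in WAT on day 4. It was higher with EGCG in the other comparisons, at 107 and 752 in BAT on day 4. The part of any of these marker sets in the Vdr result was not tested.

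The retinoic acid receptors, which bind all-trans retinoic acid as partners of RXR, separated by subtype. Rarg was higher with EGCG in all 4 comparisons. It measured 4.16, 4.42 and 4.54 FPKM in WAT day 4 controls and 8.36, 7.85 and 7.93 with EGCG. WAT day 8 levels were 12.2, 11 and 11.2 against 17.4, 17.7 and 6.85. Apart from the last library, all EGCG values lay above the controls, and the differences were 1.89-fold and 1.52-fold (0.78 and 0.56 on the log2 scale, SE 0.06, adjusted p = 6.45e-07 and 5.16e-06). In BAT, Rarg measured 7.59, 7.60 and 6.53 in day 4 controls against 12.8, 12.3 and 12.7, and 11.2, 12.2 and 11.7 in day 8 controls against 22.8, 23.2 and 24.7. The groups were apart on both days, by 1.65-fold and 1.97-fold (adjusted p = 2.45e-06 and 3.94e-08). Rarg also rose between days in all 4 settings, by 2.70-fold in WAT controls and 1.54-fold in BAT controls, and its EGCG effect on day 8 was larger in BAT than in WAT by 0.36 (SE 0.08, adjusted p = 0.00502).

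Rara was called lower with EGCG on day 4 in both depots and higher on day 8 in BAT. It measured 9.48, 9.44 and 9.25 FPKM in WAT day 4 controls and 6.89, 5.87 and 7.06 with EGCG, a fall of 1.48-fold (-0.51, SE 0.07, adjusted p = 0.000121). BAT day 8 levels were 8.07, 8.30 and 8.16 in controls and 13.5, 13.3 and 14.8 with EGCG, a rise of 1.64-fold (0.65, SE 0.07, adjusted p = 5.81e-06). Neither pair of groups overlapped. The WAT day 8 difference of 0.12 (SE 0.07) did not pass, and the EGCG effect on that day differed between depots by 0.53 (SE 0.10, adjusted p = 0.00173).

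Rarb is known as a retinoic acid target, and the 250 bases upstream of a RefSeq start of one of its shorter transcripts are shown because they hold the direct repeat GGTTCA, 5 bases, AGTTCA in capitals, which lay 53 bases before the start. This window lies in an intron of the longer Rarb transcripts, and only 2 of the 32851 promoters held these letters.
Rarb, chr14:17407991-17408240, minus strand: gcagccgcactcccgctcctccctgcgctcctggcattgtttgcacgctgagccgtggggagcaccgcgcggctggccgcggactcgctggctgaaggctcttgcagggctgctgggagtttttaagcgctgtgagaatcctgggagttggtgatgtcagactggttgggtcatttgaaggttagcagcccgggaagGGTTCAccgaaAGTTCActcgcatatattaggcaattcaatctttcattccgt
On day 8, Rarb in WAT measured 0.729, 0.287 and 0.457 FPKM in controls and 1.2, 1.44 and 0.656 with EGCG. The BAT values were 0.907, 0.886 and 0.933 against 0.739, 0.667 and 0.726. In WAT the EGCG libraries of replicates 1 and 2 were above all controls, in BAT below them. The WAT difference was 0.63 (SE 0.13, adjusted p = 0.00102) and 0.42 without control replicate 2, the BAT difference of -0.16 (SE 0.13) did not pass, and the depot difference was -0.79 (SE 0.18, adjusted p = 0.00505). On day 4 the WAT rise of 0.36 (adjusted p = 0.0338) was lost in 9 alternatives.

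Rxrg, the retinoid X receptor subtype that is most restricted in tissue, had the largest fold loss with EGCG of the 20 expressed receptors. In WAT it measured 0.748, 0.619 and 0.347 FPKM in day 4 controls and 0.118, 0.0915 and 0.0808 with EGCG. On day 8 it measured 1.35, 1.32 and 1.06 against 0.146, 0.0713 and 0.0910. The BAT day 8 values were 2.13, 1.85 and 1.80 against 0.162, 0.0717 and 0.0824. All control libraries were above all EGCG libraries in these groups, by 6.52-fold, 12.3-fold and 17.0-fold on FPKM from 20, 22 and 24 EGCG reads in the 2 tested replicates together. Without EGCG replicate 1 the day 8 folds were 18.8 in WAT and 27.8 in BAT. On the log2(FPKM + 1) scale these were -0.61, -1.08 and -1.42 (SE 0.11, adjusted p = 0.000573, 3.95e-06 and 1.95e-07). The BAT day 4 values, 0.412, 0.274 and 0.451 against 0.0540, 0.192 and 0.313 FPKM, overlapped over the 3 replicates and did not pass the test (-0.26, adjusted p = 0.0672).

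Rxrg rose between days in controls of WAT (0.47, adjusted p = 0.00238) and BAT (1.15, adjusted p = 1.59e-06), whereas in EGCG cultures the change was 0.00 in WAT and -0.01 in BAT (SE 0.11). Of the 10 adipocyte markers, 7 rose in WAT controls and 9 in BAT controls over the same days. Rxrb, the ubiquitous subtype, stayed between 16.5 and 27.4 FPKM in replicates 1 and 2. With EGCG it was called only in BAT on day 8, at -0.18 (SE 0.06, adjusted p = 0.0135), while it fell with time in all 4 settings by -0.22 to -0.43.

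Of 14 genes of retinoid handling and response, 11 were tested. With EGCG, 2 were higher and 3 lower in WAT on day 4, 4 and 4 on day 8, 5 and 2 in BAT on day 4, and 4 and 4 on day 8. Rbp4, the retinol carrier, was at 298 and 309 FPKM in replicates 1 and 2 of BAT day 8 controls and at 2.01 and 2.17 with EGCG, and in WAT at 143 and 133 against 4.42 and 4.58. Cyp26b1, which breaks down retinoic acid, went both ways. It rose by 1.93 in WAT and 0.97 in BAT on day 4 (SE 0.13, adjusted p = 2.5e-07 and 5.9e-05) and was lower on day 8 by -0.51 and -2.75 (SE 0.13, adjusted p = 0.0041 and 2.8e-09). Fabp5, a fatty acid and retinoic acid carrier, was lower in all 4 comparisons, by -2.17 to -3.08.

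The thyroid hormone receptors bind T3, which was added to the medium after day 4 and so only to the day 8 cultures. Thra was the major subtype. WAT day 4 levels were 25.9, 26.4 and 33 FPKM in controls and 52.4, 45.5 and 64.2 with EGCG, a 1.87-fold rise with no overlap (0.88, SE 0.07, adjusted p = 9.94e-07). The BAT day 4 groups overlapped over the 3 replicates, at 39.4, 40.1 and 47.4 against 39.0, 37.6 and 50.2. By BAT day 8 it was lower with EGCG, at 36.7, 33.9 and 38.6 against 25.3, 23.3 and 29.7 (-0.52, SE 0.07, adjusted p = 2.44e-05). The BAT effect minus the WAT effect was -0.93 on day 4 (SE 0.10, adjusted p = 4.92e-05) and -0.69 on day 8 (SE 0.10, adjusted p = 0.000208). The WAT day 8 call of 0.17 (adjusted p = 0.0496) turned to -0.03 after median-ratio scaling and was 0.11 without EGCG replicate 2. Thra shares 263 bases of exon with Nr1d1 on the opposite strand, whose level was 5.96 to 18.7 FPKM, and whether reads were counted by strand is not given in the sources used here.

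Thrb, the minor subtype, rose with time. It measured 1.25, 1.25 and 1.23 FPKM in WAT day 4 controls and 3.16, 3.19 and 3.30 on day 8. In BAT controls it went from 1.19, 1.28 and 1.32 to 3.97, 3.13 and 3.20. All day 8 controls were above all day 4 controls, by 2.53-fold and 2.87-fold (adjusted p = 8.03e-06 and 1.68e-06). With EGCG, BAT day 8 cultures held 1.58, 1.64 and 1.51 FPKM, 2.2-fold less than controls (-0.79, SE 0.10, adjusted p = 1.14e-05). WAT day 8 cultures held 2.83, 2.99 and 0.694, and their difference in replicates 1 and 2 of -0.10 (SE 0.10) did not pass. The depot difference on day 8 was -0.70 (SE 0.14, adjusted p = 0.00176).

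Of 9 genes of thyroid hormone handling and response, 8 were tested. With EGCG, 2 were higher and 5 lower in WAT on day 4, 1 and 4 on day 8, 2 and 5 in BAT on day 4, and 0 and 7 on day 8, with medians of -0.35, -0.18, -0.40 and -1.30. Between days 5 rose and 2 fell in WAT controls, and 5 rose and 1 fell in BAT controls. Hr, a corepressor gene induced by T3, measured 0.204 and 0.440 FPKM in replicates 1 and 2 of BAT day 4 controls and 21.8 and 20.7 on day 8. With EGCG it reached 4.18 and 4.19 in BAT on day 8 (-2.10, SE 0.15, adjusted p = 1.1e-07) and 4.73 and 4.94 in WAT, against 5.21 and 8.28 in WAT controls. Dio3, which inactivates T3, was higher with EGCG in WAT on both days and in BAT on day 4, by 0.50, 0.69 and 1.68 (SE 0.11), and lower in BAT on day 8 by -0.57 (adjusted p = 0.0004). Thrsp and Me1, genes of fatty acid synthesis that T3 also raises in liver, fell with EGCG in all 4 comparisons, Thrsp by -3.55 to -8.38 and Me1 by -1.41 to -4.08, in the same libraries where the adipocyte markers fell.

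**Figure D4:**
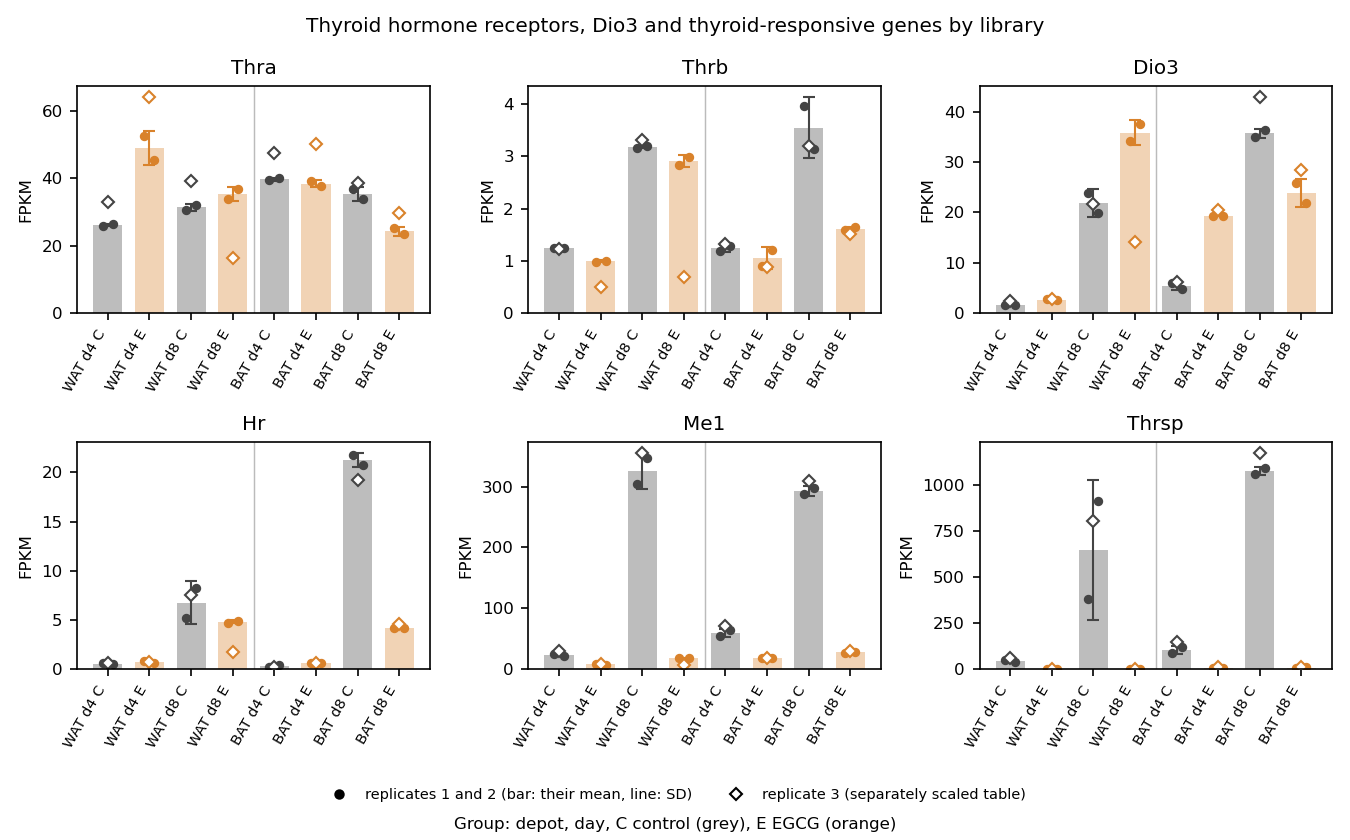
FPKM of Thra, Thrb, Dio3, Hr, Me1 and Thrsp in each library, with bars for the mean of replicates 1 and 2, lines for their SD, dots for these replicates and open diamonds for replicate 3. Thra was higher with EGCG in WAT on day 4 and lower in BAT on day 8, and Hr was under 1 FPKM in every day 4 library.

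Ppard encodes PPARδ, a fatty acid sensor that drives genes of fat oxidation. WAT day 4 levels were 15.6, 14.8 and 15.1 FPKM in controls and 29.7, 26.9 and 27.5 with EGCG, a 1.86-fold rise (0.85, SE 0.07, adjusted p = 9.67e-07). BAT day 8 levels were 23.6, 22.0 and 22.9 against 18.7, 18.3 and 19.2, a fall of 0.29 (adjusted p = 0.00192). Neither pair overlapped. The BAT day 4 difference of 0.15 (SE 0.07) did not pass, and the depot difference of the effect was -0.70 (SE 0.09, adjusted p = 0.000282) on day 4 and -0.51 (SE 0.09, adjusted p = 0.00134) on day 8. Of 6 genes known as PPARδ targets, which PPARγ and PPARα also regulate, 2 were higher and 3 lower with EGCG in WAT on day 4, where Ppard rose, 1 and 5 on day 8, 2 and 3 in BAT on day 4, and 1 and 5 on day 8. Angptl4, a lipase inhibitor, rose by 0.38 in WAT on day 4 (adjusted p = 0.0068) and fell by 2.95 in BAT on day 8, and Pdk4, which restrains glucose oxidation, fell by 1.03 and 3.5 in the same comparisons (adjusted p = 0.0015 and 2.6e-08).

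Nr1h2 encodes LXRβ, one of the oxysterol receptors, and stayed within 32.2 to 52.7 FPKM in replicates 1 and 2. It was higher with EGCG in all 4 comparisons by 0.20 to 0.44, but the BAT day 8 difference of 0.20 (adjusted p = 0.0233) was -0.00197 after median-ratio scaling and 0.13 without control replicate 1, and of the 4 calls that of WAT on day 8 was kept in all 25 alternatives. Of 6 genes that LXRs activate, 1 was higher and 3 lower in WAT on day 4, 0 and 6 on day 8, 0 and 5 in BAT on day 4, and 0 and 6 on day 8. Abca1, the cholesterol exporter, measured 42.6 and 39.4 FPKM in replicates 1 and 2 of BAT day 8 controls and 12.5 and 11.8 with EGCG (-1.68, SE 0.05, adjusted p = 1.5e-10). Srebf1, the regulator of lipogenesis, was at 132 and 136 against 30.1 and 30.4. The other LXR gene, Nr1h3, one of the remaining receptors of the family, was lower with EGCG in all 4 comparisons by -0.94 to -2.28.

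Rora, an orphan receptor of the clock, ranged from 4.19 to 10.8 FPKM in replicates 1 and 2. It rose with EGCG in WAT on day 4 by 0.42 (SE 0.08, adjusted p = 0.000626) and was lower in BAT on day 8 by -0.51 (SE 0.08, adjusted p = 7.09e-05). The day 8 effect differed between depots by -0.52 (SE 0.11, adjusted p = 0.00252). This was the same order of directions as for Thra and Ppard. Among the remaining orphans, Nr2f6 (EAR2) was lower in WAT on day 4 by -0.48 (adjusted p = 0.000651) and higher in BAT on day 8 by 0.35 (adjusted p = 0.003), and its day 4 effect differed between depots by 0.49 (SE 0.12, adjusted p = 0.0124). Nr2f6 was 2.17 times as high in replicate 3 as in the mean of replicates 1 and 2 (median of 7 groups, against 0.958 for all tested genes), and 1622 bases of its exons overlap Ocel1 on the opposite strand. Nr2c1 and Nr2c2, the testicular receptors, stayed within 4.33 to 5.91 and 3.57 to 5.31 FPKM in replicates 1 and 2. Of the Nr2c2 exons, 3533 bases overlap Mrps25 on the opposite strand, whose level was 2.69 to 6.16 FPKM. Nr6a1, the germ cell nuclear factor, was not called with EGCG, was lower on day 8 than on day 4 in WAT controls by -0.51 (SE 0.11, adjusted p = 0.0014) and was higher in BAT than WAT day 8 controls by 0.60 (SE 0.11, adjusted p = 0.000568).

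Of the sex steroid receptors, Pgr differed between depots in controls on both days, and Esr1 by the test on day 4 only. Pgr, the progesterone receptor, measured 1.44, 2.35 and 1.19 FPKM in WAT day 4 controls and 0.0383, 0.0285 and 0.0153 in BAT. On day 8 it measured 5.66, 2.47 and 2.34 in WAT controls and 0.0441, 0.00650 and 0 in BAT. No BAT library came near a WAT library: replicates 1 and 2 together held 11 reads against 680 on day 4 and 9 against 1484 on day 8. The differences were -1.47 and -2.23 (SE 0.25, adjusted p = 0.000475 and 1.75e-05). With EGCG, WAT cultures held 3.94, 2.52 and 3.04 on day 4, which did not pass (0.55, SE 0.25, adjusted p = 0.0885), and 7.63, 7.62 and 1.96 on day 8. The day 8 rise of 0.84 (SE 0.25, adjusted p = 0.0116) was 0.37 (adjusted p = 0.132) without WAT day 8 control replicate 2 and 1.31 without replicate 1. The rise between days in WAT controls, 0.75 (adjusted p = 0.0219), was 0.52 without WAT day 4 control replicate 1 and, leaving out WAT day 8 control replicate 1 or 2, 0.28 or 1.22.

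Esr1, the oestrogen receptor α and a known inducer of Pgr, was low in BAT on day 4 and rose. It measured 0.821, 0.574 and 0.703 FPKM in WAT day 4 controls and 0.118, 0.0807 and 0.0845 in BAT, a 7.03-fold difference (-0.62, SE 0.09, adjusted p = 0.000195). On day 8 the controls were at 1.74, 1.55 and 1.52 in WAT and 1.35, 1.33 and 1.19 in BAT, and the depot difference of -0.18 (SE 0.09) did not pass. Every day 8 control was above every day 4 control, by 2.36-fold in WAT and 13.5-fold in BAT (adjusted p = 9.34e-05 and 8.13e-07). With EGCG, BAT day 8 cultures reached 0.546, 0.537 and 0.612, below the controls (-0.60, SE 0.09, adjusted p = 0.000103), while WAT cultures with 1.41, 1.56 and 0.503 did not differ by the test (-0.09, SE 0.09). The depot difference was -0.51 (SE 0.13, adjusted p = 0.0102).

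Of 5 oestrogen-related genes 2 were tested, and with EGCG 0 were higher and 1 lower in WAT on day 4, 0 and 0 on day 8, 1 and 1 in BAT on day 4, and 1 and 1 on day 8. Greb1, an oestrogen receptor cofactor and target, was lower in BAT than in WAT controls by -2.14 on day 4 and -1.68 on day 8 (SE 0.08, adjusted p = 2e-08 and 2.6e-08) and rose between days in both. The epithelial markers (Epcam, Krt5, Krt14, Krt8, Krt18 and Cdh1) also differed between depots: their summed level in replicates 1 and 2 was 17.9 to 99.5 FPKM in WAT and at most 0.153 in BAT, where 4 or 5 of the 6 were at the floor in each group. In WAT the sum was 41.3, 33.5 and 75.6 FPKM in day 4 controls and 99.5, 48.8 and 172 with EGCG. On day 8 it was 21.4, 17.9 and 38.4 in controls and 33.4, 19.8 and 16.9 with EGCG. With EGCG, 5 of the 6 markers were called higher in WAT on day 4 and 1 on day 8, and 0 were called lower. The part of epithelial cells in the Pgr, Esr1 and Greb1 values was not tested.

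**Figure D5:**
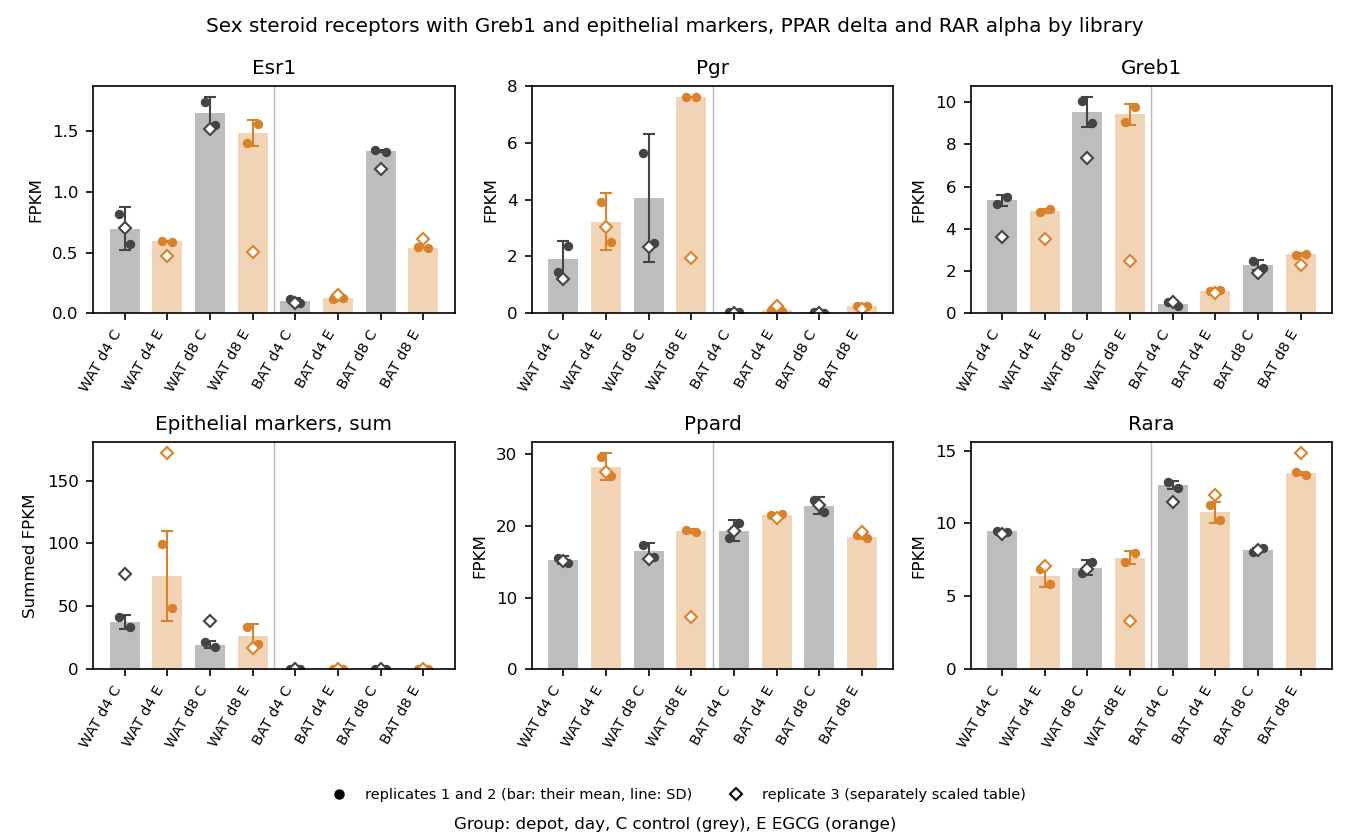
FPKM of Esr1, Pgr and Greb1, the summed FPKM of 6 epithelial markers, and FPKM of Ppard and Rara in each library, with bars for the mean of replicates 1 and 2, lines for their SD, dots for these replicates and open diamonds for replicate 3. Pgr and the epithelial sum were near 0 in all BAT libraries, while Esr1 was near 0 in BAT on day 4 and rose by day 8.

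The 9 receptors below the expression limit included some that changed when the reads were tested with limma voom, an analysis chosen after seeing the data. Nr3c2, the mineralocorticoid receptor, was called higher on day 8 than on day 4 in all 4 settings, by 0.89 to 1.57 on the log2 scale, and higher with EGCG in WAT on day 8 by 0.53 and in BAT by 1.02 on day 4 and 0.86 on day 8. BAT day 8 cultures had 102, 86 and 42 Nr3c2 reads in controls and 174, 225 and 68 with EGCG. Of 7 corticosteroid-related genes, 6 were tested: 2 were higher and 3 lower with EGCG in WAT on day 4, 2 and 4 on day 8, 2 and 0 in BAT on day 4, and 1 and 4 on day 8. Sgk1, a kinase induced by these receptors, fell with EGCG in WAT on day 4 by 0.83 and rose in BAT by 1.91 (SE 0.12, adjusted p = 0.00012 and 1.7e-07). Rorb, a neuronal and retinal receptor, went opposite to Nr3c2 with time, falling in all 4 settings by 0.86 to 1.80, and was higher with EGCG in WAT by 0.60 and 1.06 and in BAT on day 8 by 0.96.

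Nr1h4, the bile acid receptor FXR, had 33, 21 and 14 reads in BAT day 4 controls and 78, 117 and 32 with EGCG (1.74, SE 0.38, adjusted p = 0.00128 in limma voom). Esr2, the oestrogen receptor β, had 0 reads in all BAT control libraries, and 11, 11 and 1 with EGCG on day 4 and 5, 26 and 8 on day 8. These reads appeared in both tables, yet each library held few. Esrrb had 17, 24 and 6 reads in BAT day 8 controls and 0, 10 and 4 with EGCG, the tested replicates lying apart. The third libraries were less deep, at 17671381 reads on genes in the control and 17261888 with EGCG. Replicates 1 and 2 had at least 39452696, so reads of the third cannot be set directly against theirs. Nr1i3 (CAR) shares 2268 bases of exon with Tomm40l on the opposite strand and had at most 25 reads. Nr5a2 reached 26 reads in 1 library, and Nr5a1 and Nr2e1 at most 6 and 5.

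Nr1i2 (PXR), Hnf4a, Hnf4g, Nr2e3, Nr0b1 and Nr0b2, receptors of liver, gut, retina and steroid-producing tissue, had 0 to 2 reads in every library. For a transcript of 2 kb, 3 reads corresponded to 0.0284 to 0.0380 FPKM in replicates 1 and 2 and 0.0360 to 0.0915 in replicate 3. Such floors cover counting error only, and these receptors were not detectable at this depth above them.

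For comparison, the 14 remaining nuclear receptors of the family, the adipogenic core among them, leaned lower with EGCG: of 12 tested, 1 was higher and 7 lower in WAT on day 4, 4 and 6 on day 8, 2 and 6 in BAT on day 4, and 4 and 8 on day 8, with medians of -0.22, -0.25, -0.32 and -0.47 against 0.02, 0.19, 0.01 and 0.13 for the 20 receptors described here. Of 15 coregulator genes, 4 were higher and 6 lower, 6 and 4, 3 and 7, and 6 and 7 in the same order. Nrip1 (RIP140), a corepressor, was lower in all 4 comparisons by -0.39 to -0.92. Ppargc1b, a coactivator of mitochondrial genes, was at 8.81, 7.72 and 5.53 FPKM in BAT day 8 controls and 0.794, 0.522 and 0.444 with EGCG.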

How the data were processed

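Gene expression was measured by RNA-seq in 24 libraries. The authors deposited FPKM values in 2 tables, replicates 1 and 2 in one and replicate 3 in the other. Per the submitters' processing notes, FastQC 0.11.9, HISAT2 2.2.0 and HTSeq 0.11 were used with mm9. FPKM times gene length gave whole reads (within 0.01) for all values, hence the depths. Groups came from sample titles. limma 3.58.1 in R 4.3.3 was fitted to log2(FPKM + 1) of the 16 libraries of replicates 1 and 2, with 1 mean per group, trended variance, and genes of at least 1 FPKM in 2 libraries. Tests were two-sided with Benjamini-Hochberg adjustment per comparison over 14095 genes, called under 0.05. The fit was also run on simulated data where few genes changed, in 1 group. Such a run cannot show how the fit deals with changes as broad as those here. Replicate 3 is shown untested because it was deposited in a separate table. The receptors and gene lists were chosen with earlier results of these data known. Values by library are given for receptors called with a log2 change of at least 1. Thra, Rara, Rarb and Ppard were added after their values were seen. From other lists, at most 4 genes with the largest called change were named. limma voom on recovered reads (at least 10 in 2 libraries) and its median-ratio version were chosen after seeing the data. Other alternatives covered pseudocount, filter, scaling, replicate block and each library left out.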

Additional observations from a re-analysis of the deposited data

Results flagged for a closer look

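The EGCG effect differed between BAT and WAT, by an interaction test in limma, for several receptors. Values are the BAT effect minus the WAT effect on the log2(FPKM + 1) scale. On day 4 they were -0.93 for Thra, -0.70 for Ppard, 0.49 for Nr2f6, 1.02 for Nr4a2 and 0.85 for Nr4a3. On day 8 they were -0.69 for Thra, -0.70 for Thrb, 0.53 for Rara, -0.79 for Rarb, 0.36 for Rarg, -0.51 for Ppard, -0.52 for Rora, -0.51 for Esr1 and 0.62 for Nr4a3. Thra and Ppard differed in the same direction on both days. The Nr4a3 value on day 8 was 0.34 (adjusted p = 0.144) without WAT day 8 control replicate 1.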

How the results depend on the processing

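The count of called receptors moved most for EGCG in BAT on day 4: 5 as reported, 11 with limma voom and 10 with voom and median-ratio scaling, both of which tested 27 receptors. The share of all genes called is given here only for the fit as reported. Counts under other settings therefore stand without it. The depot difference on day 4 gave 5 receptors, and 8 with a replicate block over both tables with median-ratio scaling, also without WAT day 8 EGCG replicate 3. Leaving out each library in turn gave 10 to 14 receptors for EGCG in WAT on day 4, 7 to 11 on day 8 (7 without WAT day 8 control replicate 2), 2 to 6 in BAT on day 4 (2 without BAT day 4 control replicate 1, 3 without either BAT day 4 EGCG replicate) and 13 to 16 on day 8. For day 8 against day 4 it gave 15 to 15 in WAT controls, 13 to 16 in BAT controls, 12 to 16 in WAT with EGCG and 8 to 15 in BAT with EGCG (8 without BAT day 4 EGCG replicate 1). BAT against WAT gave 11 to 14 and 8 to 13, the depot differences 4 to 8 (8 without either WAT day 8 control replicate) and 8 to 11, and the number expressed 20 to 21. The direction changed for 4 small differences: Thra with EGCG in WAT on day 8 (-0.0334 with median-ratio scaling, -0.0124 with quantile normalization, -0.0359 with voom and median-ratio scaling, -0.0709 and -0.0546 with the replicate block over both tables, with and without WAT day 8 EGCG replicate 3), Nr2c1 with EGCG in WAT on day 8 (-0.00188 with that block), Nr1h2 with EGCG in BAT on day 8 (-0.00197 with median-ratio scaling, -0.000477 with voom and that scaling), and Thra between days in BAT controls (0.00565 and 0.00739 under the same settings). No pairing of the samples by replicate number was detected: deviations of same-numbered libraries correlated between -0.0790 and 0.0810 over 28 pairs. Such values cannot show whether same-numbered cultures shared an isolation. With the replicate block on 16 libraries, 4 of the 143 calls were lost, and the counts were 12, 10, 6 and 15 for EGCG. The planned edgeR test was not run because the deposited unit is FPKM. The causes were not tested. The receptors that were not expressed had from 0 to 371 reads per library.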
